A study of Homo sapiens with 6 samples.

Results

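The core genes of the RAS, RAF, MEK and ERK cascade, with the p38 kinase gene beside it, were examined in KYSE150 cells carrying a hairpin against the long non-coding RNA AC007128.1. The members were chosen by name, with earlier results of these data known. They are HRAS, NRAS, BRAF, MAP2K1, MAP2K2, MAPK3 and MAPK14, which are 7 of the 67140 gene identifiers in the table, and all 7 passed the filter on low counts that 19254 genes passed. KYSE150 is an established line from a human esophageal squamous cell carcinoma. All 6 samples came from KYSE150 cells infected with lentivirus and kept as stable lines under puromycin. In 3 of them the hairpin was the control (shCtrl), and in the other 3 it was the hairpin against AC007128.1 (shAC007128.1). The series was made to ask which transcripts change when this RNA is depleted. There was 1 control hairpin and 1 targeting hairpin, so the hairpin, the lncRNA and the selection of each line cannot be told apart.

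RAS proteins are small GTPases that sit under the plasma membrane and switch on when growth factor receptors load them with GTP. Active RAS recruits RAF kinases, RAF phosphorylates the MEK kinases, and MEK phosphorylates the ERK kinases, which then act on transcription factors and other kinases. The p38 kinases form a parallel branch that answers mainly to stress and cytokines. In squamous epithelium the ERK branch is known for its part in proliferation and migration. The values here are transcript levels, and the kinases themselves are switched by phosphorylation, which RNA counts do not measure. The study examined phosphorylated ERK and p38 separately in KYSE150 cells.

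NRAS, HRAS and MAP2K1 were higher in shAC007128.1 than in shCtrl, and no member was lower past the threshold. NRAS and HRAS were so in 16 of 16 alternative settings and MAP2K1 in 8 of 16, and MAP2K2 passed as lower in 1 of them. MAPK14 and MAPK3 passed as higher in 2 of 16 each, and BRAF in 0 of 16. NRAS rose 2.50-fold, HRAS 1.84-fold and MAP2K1 1.17-fold (n = 3 in each group). BRAF and MAPK3 were within 1.11-fold of the control, MAP2K2 was at 0.889 of it, and none of these passed the test. MAPK14 was 2.33-fold higher on average, while the replicates of each group spread over more than 3-fold. Levels of one gene are given as counts scaled to a common library total (CPM) with TMM factors. Differences are log2 fold changes from edgeR's quasi-likelihood test with Benjamini-Hochberg adjustment over the 19254 genes, and an adjusted p of at most 0.05 was the threshold for a member. So 3 of the 7 members were higher past it, where 21.0% of all tested genes were higher and 19.8% were lower. With a fold of at least 2 as well, only NRAS among the members was called, where 5.57% of tested genes were called higher and 10.1% called lower. The median log2 fold change was 0.22 over the members and -0.02 over all tested genes.

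**Figure D1:**
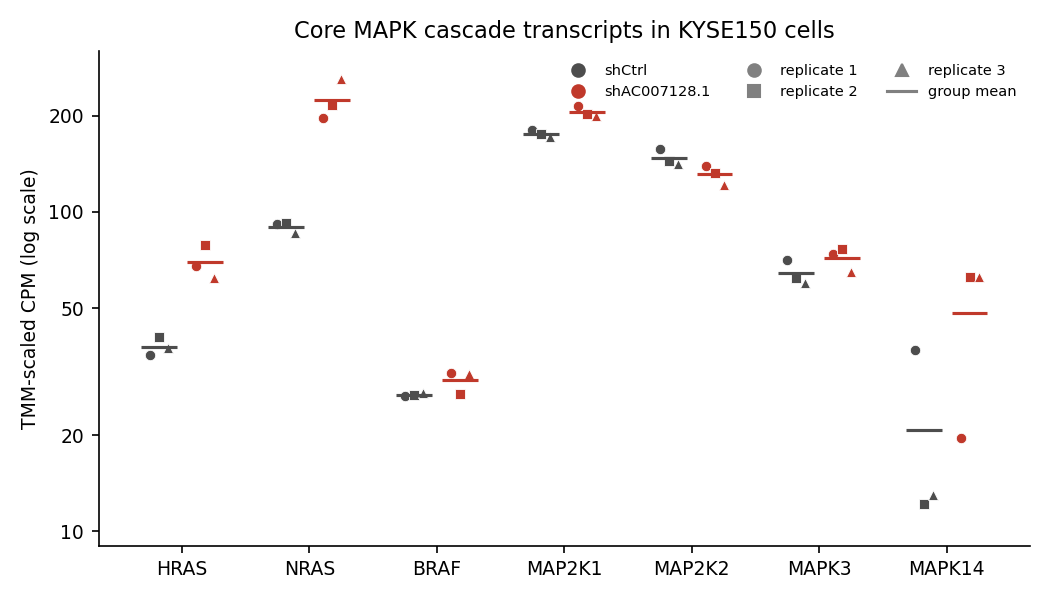
Levels of the 7 members in the 6 samples, as TMM-scaled CPM on a log axis, with shCtrl in grey, shAC007128.1 in red and a bar at each group mean. The NRAS and HRAS samples lie in separate ranges in the 2 groups, whereas the MAPK14 samples of each group spread over a 3-fold range and cross.

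The targeted gene was read first. AC007128.1 (ENSG00000229970) lies on chromosome 7 from 8262264 to 8344516 on the plus strand of hg38. Its counts were 69, 33 and 53 in shCtrl and 18, 37 and 15 in shAC007128.1, so the groups overlapped. The mean level was 0.712 ± 0.273 CPM (SD, n = 3) in shCtrl and 0.417 ± 0.224 CPM (n = 3) in shAC007128.1, which is 58.6% of the control. The log2 fold change of -0.77 (SE 0.51, 95% interval -1.96 to 0.42) had an adjusted p of 0.271 by edgeR. The drop was therefore not separable from the replicate spread at these counts, and shAC007128.1 replicate 2 lay within the control range. The study itself reports, by qPCR, that its hairpin lowered this RNA. The group names below are the labels'. The target site of the hairpin lies in exon 6 of the 7 exons of the lncRNA, at chr7:8343202-8343220 on the plus strand, and is shown because it defines the perturbation. Capitals mark the bases that pair with bases 2 to 8 of the hairpin's guide strand, counted from its 5′ end.
AC007128.1 target site: ccacaagtcctGGCACATt
This 19-base run occurred in 1 annotated gene, and in 0 of the 88 annotated transcripts of the members.

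Total counts were 65140326 to 78610457 in shCtrl and 55764405 to 60158244 in shAC007128.1, a depth at which 3 counts correspond to 0.0373 to 0.0546 CPM. Such floors cover counting error only. The lowest count of any member was 878, so counting error was small beside the spread between samples. Markers of squamous epithelium (KRT5, KRT14, KRT6A, KRT17, TP63, SFN, DSG3 and PERP) were all detected, and their summed level was 1621 to 1635 CPM in shCtrl and 2556 to 3244 CPM in shAC007128.1. Of the 8, 5 were higher, 1 lower and 2 neither past the adjusted p. Fibroblast markers summed to 15.3 to 16.1 CPM in shCtrl and 20.9 to 23.9 CPM in shAC007128.1, and of the 6, COL1A2, COL3A1 and DCN did not pass the filter on low counts. Endothelial markers summed to 2.12 to 3.11 CPM in shCtrl and 0.302 to 2.02 CPM in shAC007128.1. Leukocyte markers, mostly CD68, summed to 59.3 to 68.3 CPM in shCtrl and 14.7 to 24.0 CPM in shAC007128.1, with PTPRC removed by the same filter. Genes of low GC content were higher and those of high GC content lower. The median log2 fold change was 0.20 for genes with at most 40% GC in their longest annotated transcript and -0.25 for genes with at least 60%. The part of this shift, and of the marker shifts, in the values below was not tested, except by the GC content correction. Its values are given for the members and for some of the listed genes named here. Those are genes past the adjusted p without it that it took back across that threshold or across the 2-fold limit.

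The pair of RAS GTPase genes gave the clearest differences. NRAS (ENSG00000213281) lies on chromosome 1 from 114704469 to 114716771 on the minus strand. Its level was 91.9, 92.3 and 85.8 CPM in shCtrl and 197, 216 and 261 CPM in shAC007128.1. Every shAC007128.1 sample lay above every shCtrl sample, and the highest was replicate 3. The group means were 90.0 ± 3.63 and 225 ± 32.8 CPM (SD, n = 3 each), a log2 fold change of 1.32 (SE 0.11, 95% interval 1.06 to 1.58) with an edgeR adjusted p of 0.000153. NRAS encodes a RAS protein that is held at membranes by farnesyl and palmitoyl lipids.

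HRAS (ENSG00000174775), which encodes a RAS protein with the same kind of lipid anchor, lies on chromosome 11 from 532242 to 537321 on the minus strand. Its level was 35.5, 40.6 and 37.5 CPM in shCtrl and 67.8, 78.6 and 62.1 CPM in shAC007128.1. The groups did not overlap, and the 3 shCtrl samples lay within 1.14-fold of each other. The means were 37.9 ± 2.56 and 69.5 ± 8.40 CPM (n = 3 each). The log2 fold change was 0.88 (SE 0.11, 95% interval 0.62 to 1.14) with an edgeR adjusted p of 0.000838. The longest annotated transcript of HRAS is 62.7% GC against 37.4% in that of NRAS. With the GC content correction the HRAS log2 fold change was 1.29, past the 2-fold limit, and that of NRAS was 1.18. The correction itself moved the median of all genes by 0.14, and relative to that shift HRAS was at 1.15 and NRAS at 1.04.

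Both RAS genes start in promoters rich in GC boxes, the letters GGGCGG that SP-family factors are known to bind. The 300-base windows in RefSeq's table for GRCh38.p14 run from 250 bases before to 50 after a gene's start. GGGCGG on either strand occurred 5 times in the HRAS window and 3 times in that of NRAS, and 45.0% of the 35116 promoters of this length held it. CCGGAAG, the core of sites known for ETS factors, occurred once in each, and 10.3% of promoters held it. In both windows it stood 2 bases from a GC box, which was so in 98 of the 35116 promoters (0.279%). The 30 bases around each pair are shown because HRAS and NRAS had the largest rises among the members past the threshold. The bases are written 5′ to 3′ on the gene's strand with the motifs in capitals. The motifs were chosen with the sequences in view, so the share of promoters is no test, and a match of letters is a description.
HRAS, chr11:535687-535716, minus strand: gttgctcCCGGAAGccCCGCCCgaccgcgg
NRAS, chr1:114716753-114716782, minus strand: acgtagcGGGCGGggCCGGAAGtgccgctc
In HRAS the GC box follows CCGGAAG and is read on the opposite strand, and in NRAS it precedes it on the same strand. For MAP2K1 and MAP2K2, which have 2 windows in the table, the one at the gene's annotated start was used. CCGGAAG was in none of the windows of the other 5 members. GGGCGG was found 8 times in MAPK3, 3 in MAP2K1, 2 in MAP2K2, 1 in MAPK14 and 0 times in BRAF. CCAAT was found in the windows of HRAS, BRAF, MAP2K1 and MAPK14, and in 34.6% of promoters. TATAAA was in no member's window and in 11.5% of promoters.

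Neighbouring genes of the RAS pair moved in different directions. DENND2C, 34046 bases from NRAS on the same strand, rose, with a log2 fold change of 0.85 (edgeR adjusted p 0.0248). LRRC56 starts 205 bases from HRAS on the opposite strand and fell, with a log2 fold change of -1.55 (adjusted p 0.00669) at 1.35 CPM in shCtrl and 0.462 CPM in shAC007128.1. RNH1, on the other side of HRAS, had -0.17 (adjusted p 0.212). These neighbours were picked by position and named after their values were seen.

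BRAF (ENSG00000157764), the RAF kinase gene among the members, lies on chromosome 7 from 140719327 to 140924929 on the minus strand. Its level was 26.6, 26.8 and 27.0 CPM in shCtrl and 31.3, 27.0 and 31.1 CPM in shAC007128.1. The shCtrl samples were almost equal, and shAC007128.1 replicate 2 fell among them. The means were 26.8 ± 0.232 and 29.8 ± 2.46 CPM (n = 3 each), and the log2 fold change of 0.15 (SE 0.10) had a 95% interval of -0.07 to 0.38 and an edgeR adjusted p of 0.241. The interval leaves room for a rise of up to 1.30-fold and for a level of 0.953 of the control. With the GC content correction the log2 fold change was 0.12 (adjusted p 0.324), or -0.02 relative to the shift of all genes. Of the BRAF exon bases, 1239 (5.29%) are shared with NDUFB2 on the opposite strand. NDUFB2, a gene of the mitochondrial respiratory chain, had a log2 fold change of 1.12 (SE 0.10, adjusted p 0.000219). The use of strand in counting is not stated, so reads from the shared bases cannot be assigned to one of the genes. BRAFP1, a pseudogene of BRAF, had 0 counts in all samples.

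The MEK genes did not move alike. MAP2K1 (ENSG00000169032), which encodes MEK1, lies on chromosome 15 from 66386837 to 66491656 on the plus strand. Its level was 181, 175 and 171 CPM in shCtrl and 215, 202 and 200 CPM in shAC007128.1. The groups did not overlap. The means were 176 ± 4.94 and 206 ± 8.15 CPM (n = 3 each), and the log2 fold change was 0.22 (SE 0.06, 95% interval 0.07 to 0.38) with an edgeR adjusted p of 0.0280. MAP2K1 missed the adjusted p threshold in 5 of the 6 fits that left out 1 sample, and passed it in the one without shAC007128.1 replicate 3. With the GC content correction MAP2K1 was at 0.42 (adjusted p 0.000516), or 0.28 relative to the shift of all genes. Of its exon bases, 1322 (20.5%) are shared with the antisense lncRNA ENSG00000261351 and 216 (3.34%) with SNAPC5 on the opposite strand. Shares of bases are not shares of reads, and the part of the MAP2K1 counts from shared bases is not known. SNAPC5 had a log2 fold change of -0.55 (adjusted p 0.0160).

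MAP2K2 (ENSG00000126934), which encodes MEK2, lies on chromosome 19 from 4090321 to 4124122 on the minus strand. Its level was 158, 144 and 141 CPM in shCtrl and 140, 133 and 122 CPM in shAC007128.1. All shAC007128.1 samples were below all shCtrl samples, the closest being 139.8 and 141.3 CPM. The means were 148 ± 8.96 and 131 ± 9.23 CPM (n = 3 each), and the log2 fold change was -0.17 (SE 0.08, 95% interval -0.36 to 0.03) with an edgeR adjusted p of 0.147. The sign turned with the GC content correction, to 0.19 (adjusted p 0.0698), or 0.05 relative to the shift of all genes. The groups were thus fully separated in 4 of the 7 members, higher in HRAS, NRAS and MAP2K1 and lower in MAP2K2. Over all tested genes 27.0% were separated upward and 28.2% downward, so separation alone is common here.

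MAPK3 (ENSG00000102882), the gene of ERK1, lies on chromosome 16 from 30114105 to 30123506 on the minus strand. Its level was 70.7, 61.9 and 60.1 CPM in shCtrl and 74.0, 76.3 and 64.6 CPM in shAC007128.1. The ranges overlapped, since shCtrl replicate 1 lay above shAC007128.1 replicate 3. The means were 64.2 ± 5.69 and 71.6 ± 6.16 CPM (n = 3 each), and the log2 fold change was 0.16 (SE 0.10, 95% interval -0.08 to 0.40) with an edgeR adjusted p of 0.262. With the GC content correction it was 0.54 (adjusted p 0.00165), or 0.41 relative to the shift of all genes. The longest annotated transcript of MAPK3 is 61.4% GC.

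MAPK14 (ENSG00000112062), the gene of p38α, lies on chromosome 6 from 36027782 to 36111236 on the plus strand. Its level was 36.9, 12.2 and 12.9 CPM in shCtrl and 19.6, 62.6 and 62.4 CPM in shAC007128.1. In shCtrl replicate 1 stood high, and in shAC007128.1 replicate 1 stood low, below that sample. The means were 20.7 ± 14.1 and 48.2 ± 24.8 CPM (n = 3 each), and the log2 fold change was 1.22 (SE 0.56, 95% interval -0.10 to 2.54) with an edgeR adjusted p of 0.126. Without shCtrl replicate 1 the log2 fold change was 1.94 (adjusted p 0.0315), and without shAC007128.1 replicate 1 it was 1.60 (adjusted p 0.0435). These were the only 2 of the 16 alternative settings in which MAPK14 passed the threshold, and each left out the odd replicate of its group. Over all 16 the log2 fold change was 0.94 to 1.94, with an adjusted p of up to 0.299. With the GC content correction it was 1.33 (adjusted p 0.101), or 1.19 relative to the shift of all genes. The counts behind these levels were 2702, 980 and 878 in shCtrl and 1100, 3437 and 3630 in shAC007128.1, far above what counting error could spread.

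**Figure D2:**
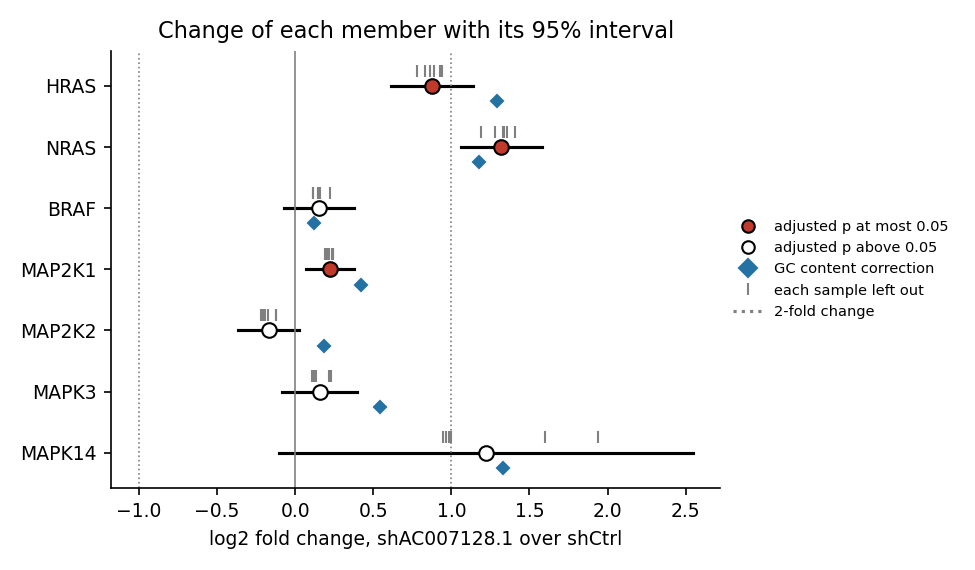
Log2 fold change of each member (shAC007128.1 over shCtrl, n = 3 each) with its 95% interval, with ticks for each sample left out in turn and diamonds for the GC content correction. HRAS and NRAS stay right of 0 throughout, MAP2K2 is at -0.17 and moves to 0.19 with the correction, and the MAPK14 interval runs from -0.10 to 2.54.

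The spread of MAPK14 between replicates was compared with that of other genes. For the 10057 tested genes with a mean of at least 10 CPM, the highest replicate over the lowest was taken in each group, and the larger of the 2 values was kept. Its median over genes was 1.25-fold. MAPK14 had 3.20-fold in shAC007128.1 and 3.03-fold in shCtrl, more than 98.5% of these genes. The other 6 members had 1.08-fold (MAP2K1) to 1.32-fold (NRAS). A spread of at least 2-fold was found in 567 of the genes (5.64%), and in 6 of 85 other genes of the pathway of that level. The 6, named after their values were seen, are RALB, GRB2, YWHAB, GOLGA7, TAB2 and SHOC2. GRB2, the adaptor that links receptors to RAS exchange factors, was at 171, 61.2 and 151 CPM in shCtrl and 169, 59.4 and 163 CPM in shAC007128.1. There replicate 2 was the low sample in both groups, whereas for MAPK14 replicate 1 was the odd one, high in one group and low in the other. What sets these jumps was not tested.

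**Figure D3:**
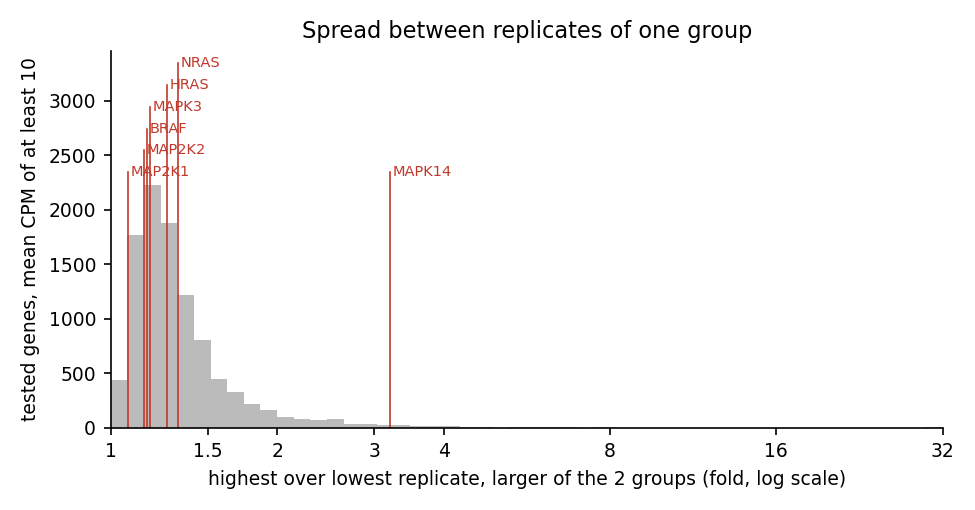
Number of tested genes with a mean of at least 10 CPM by the highest replicate over the lowest, the larger of the 2 groups, on a log axis, with a red line for each member. Values above 32-fold are counted in the last bin. MAPK14, at 3.20-fold, stands in the tail, and the other 6 members lie between 1.08-fold and 1.32-fold.

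Ratios between members within one library do not depend on the scaling between libraries. HRAS to NRAS counts stood at 0.387, 0.440 and 0.436 in shCtrl and at 0.343, 0.365 and 0.238 in shAC007128.1. The means were 0.421 ± 0.0297 and 0.315 ± 0.0679 (n = 3 each), and every shAC007128.1 sample lay below every control. This direction turned with the GC content correction, which put HRAS at 1.29 and NRAS at 1.18 on the log2 scale. MAP2K1 to MAP2K2 counts stood at 1.15, 1.22 and 1.21 in shCtrl and at 1.54, 1.52 and 1.64 in shAC007128.1, with means of 1.19 ± 0.0394 and 1.57 ± 0.0659. The groups of this ratio did not overlap. MAPK3 to MAPK14 counts stood at 1.92, 5.08 and 4.64 in shCtrl and at 3.78, 1.22 and 1.04 in shAC007128.1, and the groups overlapped. By a two-sided exact permutation test the first pair of ratios had p = 0.1 each (adjusted 0.15 over the 3 ratios), the smallest that 3 samples against 3 can give. The third had p = 0.2 (adjusted 0.2, exact permutation test). The design therefore cannot reach 0.05 for a single ratio.

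**Figure D4:**
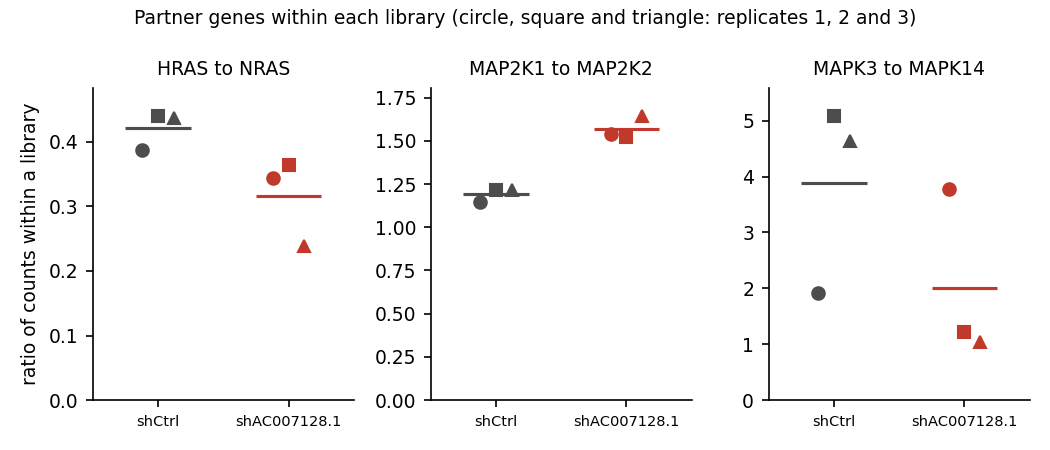
Ratio of counts within each library for 3 pairs of members, with a point for each sample and a bar at each group mean (n = 3 each). The MAP2K1 to MAP2K2 ratio lies at 1.15 to 1.22 in shCtrl and at 1.52 to 1.64 in shAC007128.1.

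Levels of different genes were compared per length, as TPM from the counts and the union of annotated exons. In shCtrl the order was MAP2K1 (86.6 ± 0.936 TPM), NRAS (66.2 ± 1.51), MAP2K2 (60.5 ± 2.69), MAPK3 (55.7 ± 3.99), HRAS (49.6 ± 3.63), MAPK14 (9.68 ± 6.42) and BRAF (3.64 ± 0.107). MAP2K2 and MAPK3 overlapped over the samples, and the other neighbours in this order did not. In shAC007128.1 the order was NRAS (163 ± 21.6 TPM), MAP2K1 (100.2 ± 4.58), HRAS (90.2 ± 13.2), MAPK3 (61.5 ± 6.63), MAP2K2 (53.3 ± 4.45), MAPK14 (22.5 ± 11.6) and BRAF (3.997 ± 0.246). There MAP2K1 overlapped with HRAS, and MAPK3 with MAP2K2. NRAS thus passed MAP2K1 to become the most abundant member, and BRAF had the lowest level in both groups. BRAF has 23433 annotated exon bases, and its level per length rests on that figure. With the longest transcript as the length, MAP2K2 led in shCtrl at 106.3 TPM and BRAF was at 6.86 TPM.

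The other genes of the pathway were taken from 10 lists with 102 genes, of which 100 passed the filter. Of these 100, 38 were higher and 17 lower past the adjusted p, where the shares over all tested genes were 21.0% and 19.8%. Their median log2 fold change was 0.19. Without shCtrl replicate 2 the counts were 24 higher and 11 lower, and without shCtrl replicate 3 they were 25 and 11. Over the fits that left out 1 sample, genes counted as higher ranged from 3 to 4 among the RAS family, from 2 to 3 among RAF, ERK and KSR genes, and from 6 to 8 in the p38 branch. They ranged from 1 to 5 in the JNK and ERK5 arms and from 2 to 6 among the downstream kinases and factors. Genes counted as lower ranged from 2 to 4 in the p38 branch and from 2 to 5 among the ERK-responsive transcripts. Among adaptors and exchange factors 2 to 4 were higher and 1 to 2 lower, among GTPase-activating proteins 1 to 3 higher and 1 to 2 lower, and among maturation enzymes 1 to 2 higher. Each of these lists had its low end without at least 1 of the shCtrl samples. With the GC content correction, 51 of the listed genes were higher and 9 lower, where 5513 of all tested genes were higher and 3209 lower.

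Among the other RAS family GTPases, 4 of 8 were higher, 2 lower and 2 neither, with a median log2 fold change of 0.17. RAP1A, a relative that acts on adhesion and can engage RAF proteins, rose by 0.61 on the log2 scale (SE 0.09, edgeR adjusted p 0.00179). RALB, of the RAL branch of RAS signalling, was at 26.2, 30.3 and 7.10 CPM in shCtrl and 111, 119 and 131 CPM in shAC007128.1, and had the list's largest rise (2.50, SE 0.47, adjusted p 0.00509). MRAS, a partner of the SHOC2 phosphatase complex, fell from 1.36 ± 0.922 to 0.154 ± 0.0642 CPM (-3.12, SE 0.63, adjusted p 0.00668).

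Of the other RAF, ERK and KSR genes, 3 of 5 were higher and none lower, with a median log2 fold change of 0.56. The scaffold gene KSR1, which brings RAF and MEK together, was at 7.45, 7.15 and 6.38 CPM in shCtrl and 10.8, 10.5 and 9.60 CPM in shAC007128.1 (0.56, edgeR adjusted p 0.0130). ARAF, another RAF kinase gene, was at 0.10 (adjusted p 0.476).

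Adaptors and exchange factors, which load RAS with GTP, had 4 of 13 tested genes higher and 2 lower. GAB1, a docking protein of growth factor receptors, rose from 20.6 ± 0.915 to 43.1 ± 6.40 CPM (1.07, SE 0.12, edgeR adjusted p 0.000564), and SOS1, the main exchange factor, rose by 0.69 (adjusted p 0.00238). RASGRF1, a calcium-responsive exchange factor, fell from 7.66 ± 0.280 to 1.36 ± 0.179 CPM (-2.49, SE 0.17, adjusted p 7.46e-05). RASGRP3 rose from a mean of 0.430 to 1.02 CPM (1.25, adjusted p 0.0469). RASGRP2 fell from 0.451 to 0.0287 CPM (-3.87, adjusted p 0.0300), and was at 0 counts in shAC007128.1 replicates 1 and 2, so its fitted value is no bound. RASGRP3 passed the adjusted p in 8 of 16 alternatives. RASGRP2 was tested in 14 alternatives and passed it in 6 of them. With the GC content correction RASGRP2 was at -3.36 (adjusted p 0.0561). That correction put GAB1 at 0.94, below the 2-fold limit.

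Among the GTPase-activating proteins, which switch RAS off, 3 of 8 tested genes were higher and 2 lower. DAB2IP rose (0.64, SE 0.10, edgeR adjusted p 0.00239) and RASA3 was lower (-0.87, adjusted p 0.0201), whereas NF1 had a log2 fold change of -0.01 (adjusted p 0.983). With the GC content correction RASA3 was at -0.59 (adjusted p 0.0897), and DAB2IP was past the 2-fold limit at 1.006. RASA3 also missed the threshold without shCtrl replicate 1 or 3. Of the enzymes that process and move RAS proteins, 2 of 7 were higher and 1 lower. ICMT, which methylates the processed RAS end, was at 33.1, 33.3 and 34.0 CPM in shCtrl and 91.0, 95.5 and 86.6 CPM in shAC007128.1 (1.44, SE 0.08, adjusted p 3.31e-05). ZDHHC9, a subunit of the enzyme that palmitoylates HRAS and NRAS, was at 84.5, 80.0 and 84.0 CPM in shCtrl and 43.0, 43.3 and 41.5 CPM in shAC007128.1 (-0.96, SE 0.07, adjusted p 0.000101). Its partner gene GOLGA7 was at 0.23 (adjusted p 0.586). So the transcript of this subunit fell in the samples in which those of HRAS and NRAS rose.

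RAF regulators and scaffolds had 4 of 10 genes higher and 1 lower. YWHAB, an adaptor that holds RAF in its closed form, was at 91.9, 120 and 222 CPM in shCtrl and 409, 398 and 479 CPM in shAC007128.1 (1.57, SE 0.30, edgeR adjusted p 0.00543). PEBP1, an inhibitor of RAF, rose from 110.4 ± 2.85 to 186 ± 19.1 CPM (0.75, SE 0.09, adjusted p 0.000663). The lower gene was PPP1CB, a phosphatase subunit that helps to open RAF (-0.51, adjusted p 0.0145), and no gene of the list was lower without shAC007128.1 replicate 2.

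**Figure D5:**
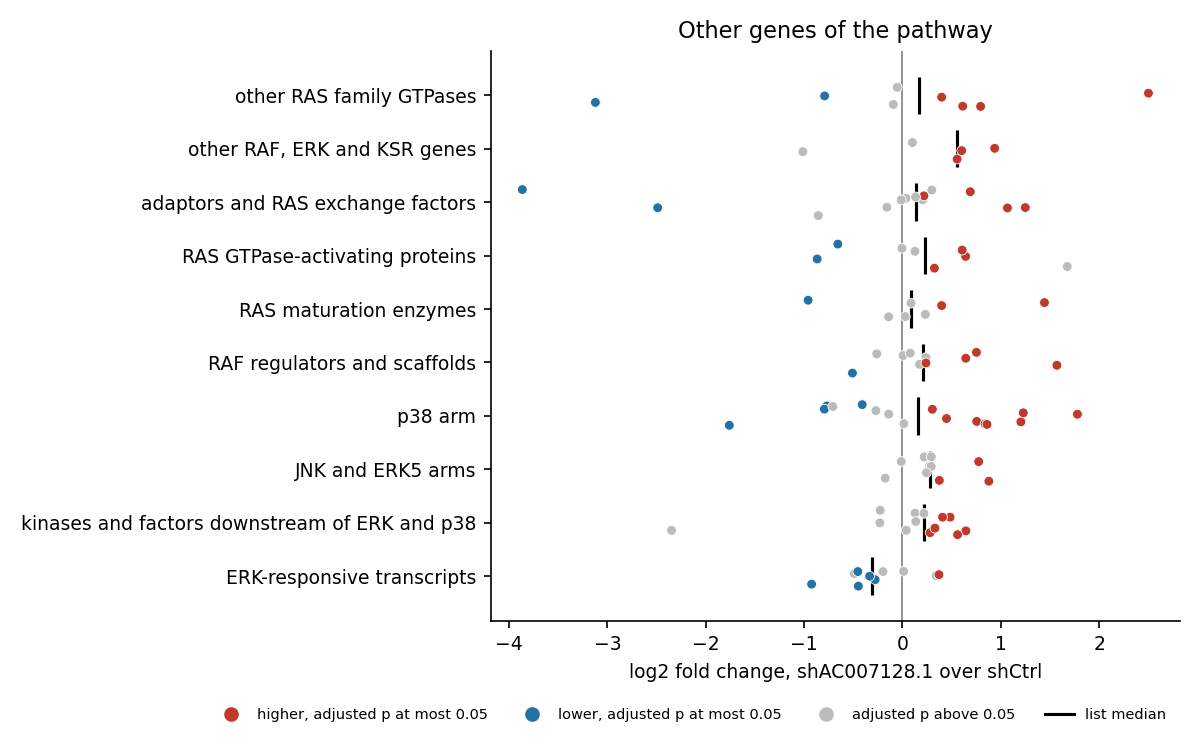
Log2 fold change (shAC007128.1 over shCtrl) of the 100 tested genes in 10 lists, red or blue where the adjusted p was at most 0.05 and grey otherwise, with a bar at each list's median. The ERK-responsive transcripts, at -0.31, are the one list with a median below 0, and with the GC content correction 1 of them was lower and 3 higher.

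In the p38 branch 8 of 16 genes were higher and 4 lower, with a median log2 fold change of 0.16. The kinases above p38 moved in both directions. MAP3K4 rose from 29.6 ± 1.67 to 69.3 ± 5.62 CPM (1.23, SE 0.09, edgeR adjusted p 0.000106). MAP2K6, a kinase that phosphorylates p38, rose from 2.12, 2.56 and 1.53 CPM in shCtrl to 3.56, 7.37 and 10.4 CPM in shAC007128.1 (1.78, SE 0.40, adjusted p 0.0104). MAP2K4, which acts on p38 and JNK, rose from 39.7 ± 5.03 to 91.5 ± 15.4 CPM (1.20, SE 0.15, adjusted p 0.000706). MAP2K3, another kinase of p38, fell (-0.77, adjusted p 0.000643). GADD45A, a stress-induced activator of MAP3K4, was at 141, 165 and 141 CPM in shCtrl and 53.2, 41.9 and 37.0 CPM in shAC007128.1 (-1.76, SE 0.15, adjusted p 0.000145). The other 2 genes that fell were p38 genes themselves, MAPK11 (-0.79, adjusted p 0.0429) and MAPK13 (-0.41, adjusted p 0.0187). With the GC content correction neither passed (adjusted p 0.413 and 0.0837). MAPK13 lies 16572 bases from MAPK14 on the same strand. MAP2K3, MAPK11 and MAPK13 were named after their values were seen.

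The JNK and ERK5 arms had 3 of 10 genes higher and none lower, among them the JNK gene MAPK9 (0.38, edgeR adjusted p 0.0147) and MAP3K3, a kinase above ERK5 (0.78, adjusted p 0.00229, and 1.08 with the GC content correction). Of the kinases and factors downstream of ERK and p38, 6 of 13 were higher and none lower. ELK1, an ETS factor that ERK phosphorylates, rose by 0.65 (SE 0.13, adjusted p 0.00647), and RPS6KA5, a nuclear kinase of both branches, rose by 0.56 (SE 0.11, adjusted p 0.00669).

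Transcripts known to follow ERK activity were taken as a list of their own. Of these 10, 1 was higher and 5 were lower, with a median log2 fold change of -0.31, where 19.8% of all tested genes were lower. PHLDA1 was at 490, 498 and 493 CPM in shCtrl and 256, 256 and 269 CPM in shAC007128.1 (-0.92, SE 0.06, edgeR adjusted p 4.89e-05). EPHA2, a receptor kinase, fell from 219 ± 6.55 to 160 ± 15.1 CPM (-0.45, SE 0.08, adjusted p 0.00481). The other 3 that fell were the feedback inhibitors SPRY2 (-0.33), SPRY4 (-0.45) and DUSP4 (-0.28), and the 1 that rose was ETV5 (0.37, adjusted p 0.00771). DUSP6, the ERK phosphatase, was at -0.49 (adjusted p 0.0927), and CCND1, the gene of cyclin D1, was at 0.01 (adjusted p 0.869). With the GC content correction only PHLDA1 of the 5 was still lower past the threshold, at -0.90, and EPHA2, SPRY2, SPRY4 and DUSP4 had adjusted p of 0.190, 0.183, 0.172 and 0.444. Without shCtrl replicate 2 or without shCtrl replicate 3 the count of lower genes was 2.

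Genes whose pattern over the 6 samples was most like a member's were sought among 11163 protein-coding genes, by Pearson's r on log2 CPM. With 6 points that share the group difference, high values are easy to reach, and they are given as a description. For NRAS it was NUDT21 (r = 0.999955), and for HRAS FHOD1 (0.998) and NOD1 (0.996). For MAP2K1 they were BRF2 (0.996) and TALDO1 (0.995), for BRAF PRCP (0.999) and DEK (0.993), and for MAPK3 YPEL3 (0.996) and SLC26A11 (0.991). The values for MAP2K2 were lower, at 0.985 for B3GNT9 and 0.984 for NOL7. For MAPK14 they were 0.988 for MREG and 0.974 for ANKHD1.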

How the data were processed

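Poly-A RNA of KYSE150 cells was sequenced by the study as paired-end libraries, 3 with shCtrl and 3 with shAC007128.1. Per the study's methods, reads left after quality filtering were aligned to hg38 with TopHat, and Cufflinks was used for expression. The submitters' processing notes list CASAVA 1.8, TopHat2 2.0.6 and the builds GRCh38 and mm10, without saying what each was used for. The table deposited by the authors holds estimated counts of each Ensembl gene as whole numbers, without normalization. The counting program, annotation and use of strand are not given in the sources used here. Column titles in the labels gave the groups and replicate numbers, and the treatment text names shAC007128.1 for every sample. Nothing says that replicates were separate cultures, so p-values measure only the spread between these samples, which may be technical. No pair of samples was identical.

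Members and pathway lists were chosen with earlier results of these data known. Identifiers were matched to GENCODE v44 on hg38 (60357 of 67140, 89.9%), and filterByExpr removed 47886. Counts were scaled by TMM (factors 0.967 to 1.042) and tested with edgeR 4.0.16 (glmQLFit, glmQLFTest) in R 4.3.3 without covariates. Calls needed an adjusted p no higher than 0.05 together with a change of at least 2-fold. SE is the log2 fold change over the root of F. log2 CPM used a prior count of 2. Steps were tested on simulated data. Total counts of 55764405 to 78610457 per sample set the counting error only, and the SE also reflects the spread between samples. Alternatives were DESeq2 1.42.0, limma-voom (limma 3.58.1), scaling by DESeq2's factors or by library size alone, leaving out the filter or asking for 10 counts in each sample, a replicate block, a GC content correction with and without that block, counts divided by 4 (low values pile up at multiples of 4) and each sample left out. Named genes are the members, AC007128.1, every called gene and the 2 smallest p in each list, and the 2 most similar genes per member. Others are said to be named after their values were seen, or belong to a count of 5 or fewer. ARAF, NF1, DUSP6 and CCND1, none past the adjusted p, were among those named outside this rule. Some genes that this rule names are not reported here.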

Additional observations from a re-analysis of the deposited data

How the results depend on the processing

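HRAS and NRAS were higher past the adjusted p in all 16 alternatives (log2 fold change 0.78 to 1.29 for HRAS and 1.18 to 1.41 for NRAS, adjusted p at most 0.00626), and BRAF in 0 of 16. The same-numbered samples did not deviate together (correlations 0.0306, -0.0254 and -0.0299), so replicate numbers were not taken as pairs. With the replicate block the MAP2K1 log2 fold change was 0.22 (adjusted p 0.0617), and no other member crossed the adjusted p threshold. MAP2K1 also missed the threshold with library size only (0.15, adjusted p 0.0887) and with no filter (0.18, adjusted p 0.130), where 34756 genes were tested. With library size only, MAP2K2 passed it at -0.24 (adjusted p 0.0471). GC content correction, without and with the block, gave 0.19 and 0.19 for MAP2K2 and 0.54 and 0.55 for MAPK3, the latter past the threshold (adjusted p 0.00165 and 0.0106), while the median of all genes moved by 0.14 and 0.13. The listed pathway genes lower past the adjusted p were 9 under either, against 17. Without the fold limit 5513 genes were higher and 3209 lower with the correction, against 4041 and 3820. Called genes were 1567 higher and 1480 lower with it, against 1073 and 1945, and with the block as well 1243 were called lower. The cause of these changes was not tested. Without the filter the median of all genes moved by -0.13.

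Leaving out each sample gave 0.19 to 0.24 for MAP2K1, 0.94 to 1.94 for MAPK14, -0.22 to -0.12 for MAP2K2, 0.11 to 0.23 for MAPK3 and 0.11 to 0.22 for BRAF. It gave 24 to 40 listed pathway genes higher and 11 to 17 lower, with fewer samples in each fit. Over all tested genes it gave 3092 to 4306 higher and 2854 to 4152 lower. Of the levels per length, the longest transcript in place of all exons gave, in shCtrl and shAC007128.1, 52.3 and 127.8 TPM for NRAS, 6.86 and 7.47 for BRAF, 106.3 and 92.6 for MAP2K2 and 62.9 and 68.7 for MAPK3, and 90.9 TPM for MAP2K1 in shCtrl. Depth limits AC007128.1, at 15 to 69 counts, and the listed genes below 1 CPM.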
